A study of Mus musculus with 10 samples.

Results

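The immediate early genes Fos, Fosb, Jun, Junb, Jund, Egr1, Egr2, Ier2, Dusp1 and Nr4a1 were described across 3 groups of embryonic mouse hearts. They were taken as a list of symbols and matched to the Ensembl identifiers of the deposited gene table. All 10 were found among its 49662 genes, and all 10 were among the 17204 genes that reached at least 10 estimated fragments in some group and were estimated in every group. Whole hearts of wild-type embryos were compared at gestational hypoxia (wild-hypoxia, 3 samples) and at normal oxygen (wild-normoxia, 4 samples), and another group held hearts from embryos heterozygous for an Nkx2-5 mutation and kept at normal oxygen (mutant-normoxia, 3 samples). All came from crosses on the 129/Sv background with wild-type mothers. Mutant embryos carried 1 copy of a knock-in allele with the point mutation R52G, which every cell of the embryo carries. Counts per gene cannot show a point mutation, so the genotype was not checked here. Hypoxic mothers were kept at 14% oxygen from gestation day 10, and the hearts were taken after 2 days of hypoxia, at E12.5. Each sample was a pool from 2 to 3 hearts.

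Immediate early genes are those that cells switch on within minutes of a stimulus, from transcription factors already present and without new protein synthesis. Growth factors, stretch, stress and handling of tissue act on them through the ERK, JNK and p38 kinases, through serum response factor (SRF) with its ternary complex partners, and through CREB. Most of their transcripts are short-lived, and many of their products are transcription factors or feedback inhibitors that set the later response.

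For every gene the table gave a single estimated count for each group, beside a variance that came out of the authors' model. The spread between samples is therefore unknown here, no p-value was computed, and each value below stands for a whole group. Fold changes are given on the log2(count + 1) scale, without scaling by the totals, which were 19.6 M fragments in wild-hypoxia, 18.7 M in mutant-normoxia and 18.5 M in wild-normoxia. The model standard error (SE) takes each deposited variance over the size of its group. It describes the authors' model and is not a replicate error. In bulk RNA, fewer cells that express a gene and less RNA per cell cannot be told apart. Cardiomyocyte markers were high in all groups: the 12 on the list summed to 568043 fragments in wild-hypoxia, 588619 in mutant-normoxia and 549051 in wild-normoxia, the lowest of them, Nkx2-5, at 4131 in wild-hypoxia, 4106 in mutant-normoxia and 3689 in wild-normoxia.

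Fos and Egr1 were the members with the clearest difference, and it was seen in mutant-normoxia hearts. Their log2 fold changes against wild-normoxia there were 0.93 for Fos, a fold of 1.91, and 0.58 for Egr1. The study's supplementary list of genes called different in this comparison holds Egr1, and Fos is not among its rows. Wild-hypoxia hearts had Fos at 1.05 and Egr1 at 0.894 of the wild-normoxia level. Egr2, Fosb and Junb were also higher in mutant-normoxia, but from low counts or without a usable error. Jun, Jund, Ier2, Dusp1 and Nr4a1 had log2 fold changes between -0.18 and 0.23 in both groups, all under 2 model SE. This split goes by the size of the fold. In model SE, Dusp1 (1.54) and Fosb (1.45) were at like distances in mutant-normoxia. No member was over 2-fold in any of the 3 comparisons. Among the 17204 genes, 2.99% passed that fold in wild-hypoxia against wild-normoxia (1.08% higher and 1.91% lower). The share was 2.08% in mutant-normoxia against wild-normoxia (1.59% higher and 0.494% lower). It was 1.97% in wild-hypoxia against mutant-normoxia (0.238% higher and 1.73% lower).

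Start regions of 4 members are shown because their letters carry the elements through which the pathway is known to act. These members also differed in the size of their log2 fold change in mutant-normoxia against wild-normoxia. It was 0.93 for Fos, 0.73 for Egr2, 0.23 for Dusp1 and -0.03 for Nr4a1. In model SE, Egr2 (1.90) and Dusp1 (1.54) were not far apart there. Whether the elements bear on these levels was not tested. Each window runs from 250 bases before the RefSeq transcript start to 50 after it (GRCm38.p6), 5′ to 3′ on the strand of the gene. Capitals mark a CArG box, the SRF element, a TATA box (TATAAA) or the core of the cyclic AMP response element, CRE (TGACG, read as CGTCA on the other strand).
Fos, chr12:85473640-85473939, plus strand: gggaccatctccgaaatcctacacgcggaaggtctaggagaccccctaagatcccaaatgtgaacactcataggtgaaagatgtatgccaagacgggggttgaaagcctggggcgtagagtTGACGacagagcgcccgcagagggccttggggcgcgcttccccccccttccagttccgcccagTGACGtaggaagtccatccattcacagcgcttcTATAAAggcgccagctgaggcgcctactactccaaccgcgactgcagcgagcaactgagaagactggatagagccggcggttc
Egr2, chr10:67537619-67537918, plus strand: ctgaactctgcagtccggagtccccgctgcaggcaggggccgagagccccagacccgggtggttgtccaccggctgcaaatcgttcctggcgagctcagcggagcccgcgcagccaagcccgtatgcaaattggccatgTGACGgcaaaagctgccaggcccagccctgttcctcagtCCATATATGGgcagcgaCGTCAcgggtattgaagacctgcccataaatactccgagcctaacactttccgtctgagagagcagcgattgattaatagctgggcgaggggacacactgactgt
Dusp1, chr17:26508423-26508722, minus strand: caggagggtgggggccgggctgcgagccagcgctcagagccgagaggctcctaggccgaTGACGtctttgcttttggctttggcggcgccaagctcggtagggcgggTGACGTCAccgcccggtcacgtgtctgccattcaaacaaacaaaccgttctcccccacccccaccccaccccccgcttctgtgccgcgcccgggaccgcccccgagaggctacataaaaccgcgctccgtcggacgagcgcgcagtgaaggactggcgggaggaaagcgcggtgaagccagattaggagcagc
Nr4a1, chr15:101266596-101266895, plus strand: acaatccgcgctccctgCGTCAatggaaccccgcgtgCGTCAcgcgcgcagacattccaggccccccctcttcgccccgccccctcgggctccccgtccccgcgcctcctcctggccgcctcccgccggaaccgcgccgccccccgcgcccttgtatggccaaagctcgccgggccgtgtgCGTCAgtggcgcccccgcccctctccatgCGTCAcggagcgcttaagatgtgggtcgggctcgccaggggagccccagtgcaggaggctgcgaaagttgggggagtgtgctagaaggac
The Fos window held CRE cores that begin at -129 and -66 from the start and a TATA box at -33. The Egr2 window held a CArG box at -72, between CRE cores at -111 and -55. Of the 5 windows listed for Egr2, 4 held a CArG box, and the printed one is 1 of 3 that overlap each other. The Dusp1 window held a full CRE (TGACGTCA) at -143, which contains the core on both strands, and a further CRE core at -191. The Nr4a1 window held 4 CRE cores, at -233, -213, -69 and -40.

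RefSeq windows were searched for 8 members. Egr1 was left out of the search because member windows on its chromosome, 18, were not used, so its elements were not examined. No window was available for Ier2. A CArG box was in the windows of 1 of these 8 genes and in 1.64% of all 32544 windows. The CRE core TGACG was in windows of 6 of the 8 genes, Fos, Fosb, Junb, Egr2, Dusp1 and Nr4a1, and in 20.9% of all windows. A full CRE was in 1 of the 8 and in 1.8% of all windows. The EGR site (GCGNGGGCG) was in 2 of the 8, Fosb and Nr4a1, and in 5.6% of all windows, and the AP-1 site (TGANTCA) in 0 of the 8 and in 7.79% of all windows. The TATA box was in 2, Fos and Junb, and in 13.6% of all windows. All motifs were searched on both strands. A CRE core is part of every full CRE. These are matches of letters only. Sequence farther than 250 bases before the start was not searched, so a gene without a match here may still hold the element. The counts are of genes, with 5 windows for Egr2, while the shares are of single windows.

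AP-1 is a dimer of a FOS protein with a JUN protein, or of JUN proteins, joined by leucine zippers. Fos encodes c-Fos, the classical inducible partner (ENSMUSG00000021250, in the NCBIM37 annotation, as are all positions below, on chromosome 12 from 86814840 to 86818223, with 4 exons). Its estimated count was 158 fragments in wild-hypoxia, 288 in mutant-normoxia and 150 in wild-normoxia. The mutant-normoxia value stood alone, and the other 2 groups were 7.74 fragments apart. Wild-hypoxia gave a log2 fold change of 0.07 with a model SE of 0.25, a distance of 0.293 model SE from 0. Mutant-normoxia gave 0.93 with a model SE of 0.23, a distance of 4.10 model SE. Of the 11742 genes with at least 100 fragments in every group, 48 had a higher log2 fold change than Fos in mutant-normoxia and 3236 in wild-hypoxia. With each variance taken whole, the distance in mutant-normoxia was 2.19 model SE.

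Fosb encodes a second FOS protein, known in brain for a long-lived splice form (chromosome 7, 19888070 to 19895394, 4 exons). It had 67.7 fragments in wild-hypoxia, 87.2 in mutant-normoxia and 64.4 in wild-normoxia. The order of the groups for Fosb was that of Fos, with a smaller gap. Its log2 fold changes were 0.07 in wild-hypoxia (model SE 0.32) and 0.43 in mutant-normoxia (0.30), both under 2 model SE.

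Jun encodes c-Jun, the main dimer partner of Fos (chromosome 4, 94715725 to 94718913, 1 exon). It was abundant, with 2383 fragments in wild-hypoxia, 2432 in mutant-normoxia and 2225 in wild-normoxia. Its log2 fold changes were 0.10 in wild-hypoxia (model SE 0.14) and 0.13 in mutant-normoxia (0.14), so that all groups lay within 1 model SE. The antisense transcript BC042782, annotated over 689 bases of the gene, was counted at 8.93 to 10.3 fragments, under 1% of the Jun count in every group.

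Junb encodes a JUN protein that often opposes c-Jun (chromosome 8, 87500811 to 87502617, 1 exon). It had 366 fragments in wild-hypoxia, 396 in mutant-normoxia and 292 in wild-normoxia, which put wild-hypoxia 0.33 and mutant-normoxia 0.44 above wild-normoxia on the log2 scale. It was higher in both groups, and it is the member with the highest log2 fold change in wild-hypoxia. The variance deposited for Junb was 1 squared fragment in each group, with a dispersion part of 0, so no model SE was used for it. It is 1 of 3 compared genes without a usable model SE.

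Jund encodes the JUN protein that is made without a stimulus in many tissues (chromosome 8, 73221638 to 73224515, 1 exon). It had the highest count of all members, with 5036 fragments in wild-hypoxia, 4491 in mutant-normoxia and 4370 in wild-normoxia, so that wild-hypoxia was 0.20 (model SE 0.17) and mutant-normoxia 0.04 (0.17) higher on the log2 scale. An antisense gene model, Gm11175, covers 543 bases of Jund and was counted at 1796 fragments in wild-hypoxia, 1652 in mutant-normoxia and 1192 in wild-normoxia, 27.3% to 36.8% of the Jund count. The use of strand in the counting is not given in the sources used here, so reads of Jund and of this model cannot be told apart, and the Jund values are uncertain.

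**Figure D1:**
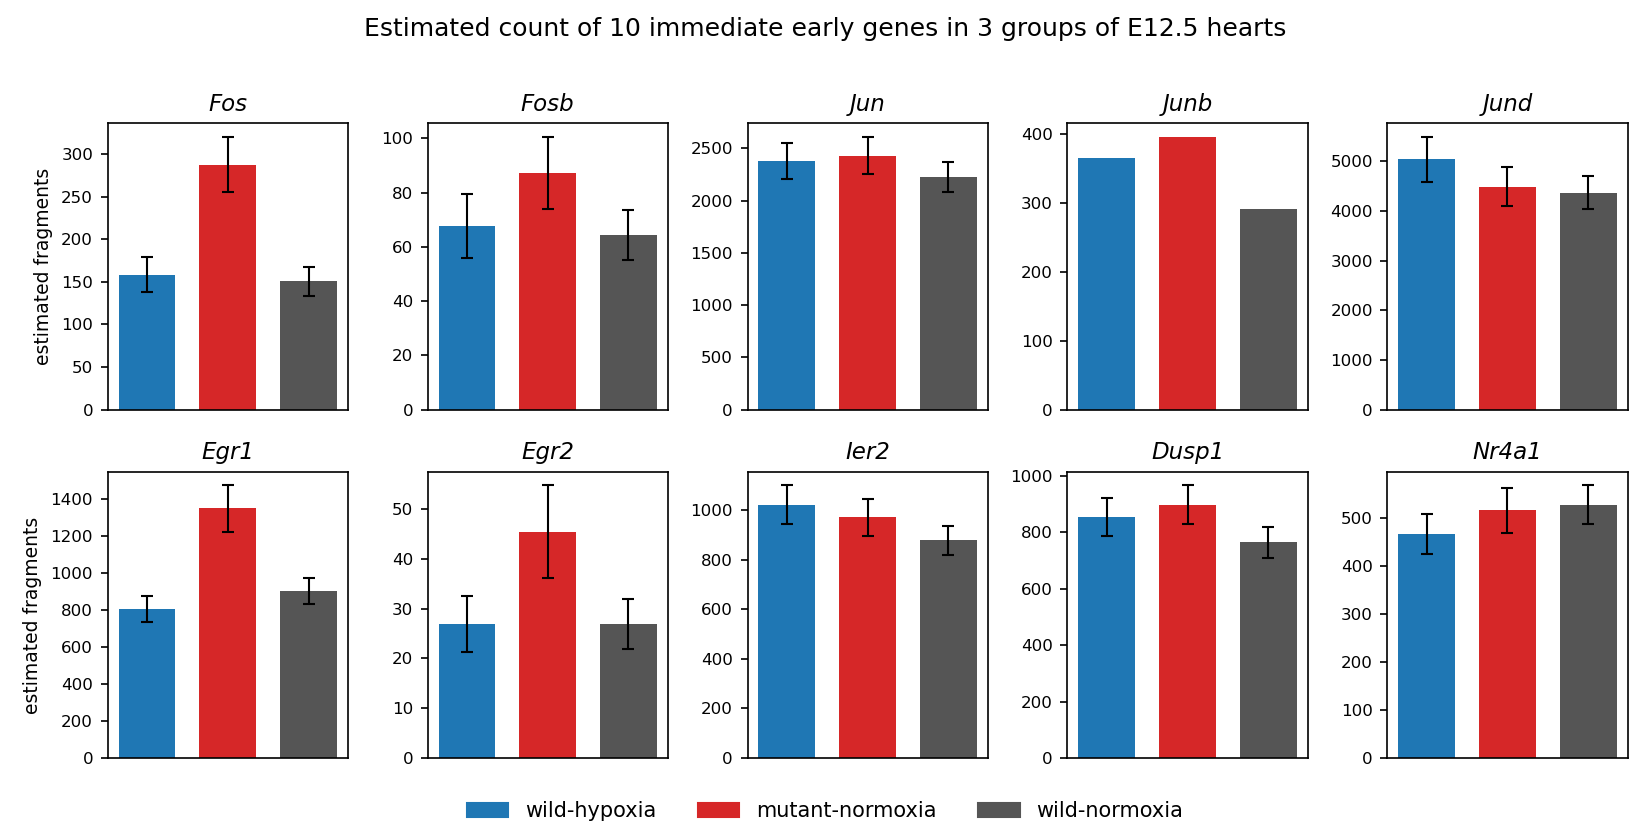
Estimated fragments (y axis, starting at 0, with its own scale for each gene) of the 10 immediate early genes in wild-hypoxia, mutant-normoxia and wild-normoxia hearts, 1 bar per group. Error bars are the model SD divided by the square root of the number of samples and are left out for Junb. The mutant-normoxia bars of Fos (288), Egr1 (1352) and Egr2 (45.4) stand above the other 2 groups, while those of Jun, Jund, Ier2, Dusp1 and Nr4a1 are near them.

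EGR proteins are zinc finger factors that bind GC-rich sites, and SRF acts on Egr1 and Egr2 through CArG boxes. Egr1 (ENSMUSG00000038418, chromosome 18, 35020861 to 35024638, 2 exons) is known to respond to growth factors, stretch and low oxygen. It had 807 fragments in wild-hypoxia, 1352 in mutant-normoxia and 903 in wild-normoxia. The mutant-normoxia value was the highest and the wild-hypoxia value the lowest. Wild-hypoxia gave a log2 fold change of -0.16 with a model SE of 0.17, a distance of -0.973 model SE. Mutant-normoxia gave 0.58 with a model SE of 0.17, a distance of 3.34 model SE. Among the 11742 well-counted genes, 116 had a higher log2 fold change in mutant-normoxia. The distance was 1.81 model SE with undivided variances, so Egr1 is over 2 model SE only where the variance is divided by the number of samples. An antisense model, Gm17507, is annotated over 200 bases of Egr1, and it was not analysed here.

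Egr2 (chromosome 10, 66998223 to 67004936, 2 exons), known for its part in hindbrain segments and in myelin, had the lowest counts of all members. It had 26.9 fragments in wild-hypoxia, 45.4 in mutant-normoxia and 26.9 in wild-normoxia. Its pattern followed that of Fos, with the 2 wild-type groups 0.0428 fragments apart. The log2 fold change in mutant-normoxia was 0.73, a fold of 1.66, at 1.90 model SE from 0 (0.39), and in wild-hypoxia 0.00 (0.39).

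Ier2, a short nuclear protein gene induced with the AP-1 genes (chromosome 8, 87185230 to 87186751, 1 exon), had 1020 fragments in wild-hypoxia, 969 in mutant-normoxia and 878 in wild-normoxia. On the log2 scale, wild-hypoxia was 0.22 (model SE 0.15) and mutant-normoxia 0.14 (0.15) above wild-normoxia. Dusp1 encodes a phosphatase that switches off p38, JNK and ERK and so ends the response (chromosome 17, 26642535 to 26645464, 3 exons). It had 853 fragments in wild-hypoxia, 897 in mutant-normoxia and 764 in wild-normoxia. Its log2 difference was 0.16 for wild-hypoxia (0.15) and 0.23 for mutant-normoxia (0.15). Nr4a1 encodes the orphan nuclear receptor Nur77 (chromosome 15, 101097277 to 101105223, 7 exons). It had 467 fragments in wild-hypoxia, 516 in mutant-normoxia and 528 in wild-normoxia. Its log2 difference was -0.18 for wild-hypoxia (0.17) and -0.03 for mutant-normoxia (0.17). All of these differences were under 2 model SE, and Nr4a1 was the only member below wild-normoxia in mutant-normoxia hearts.

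**Figure D2:**
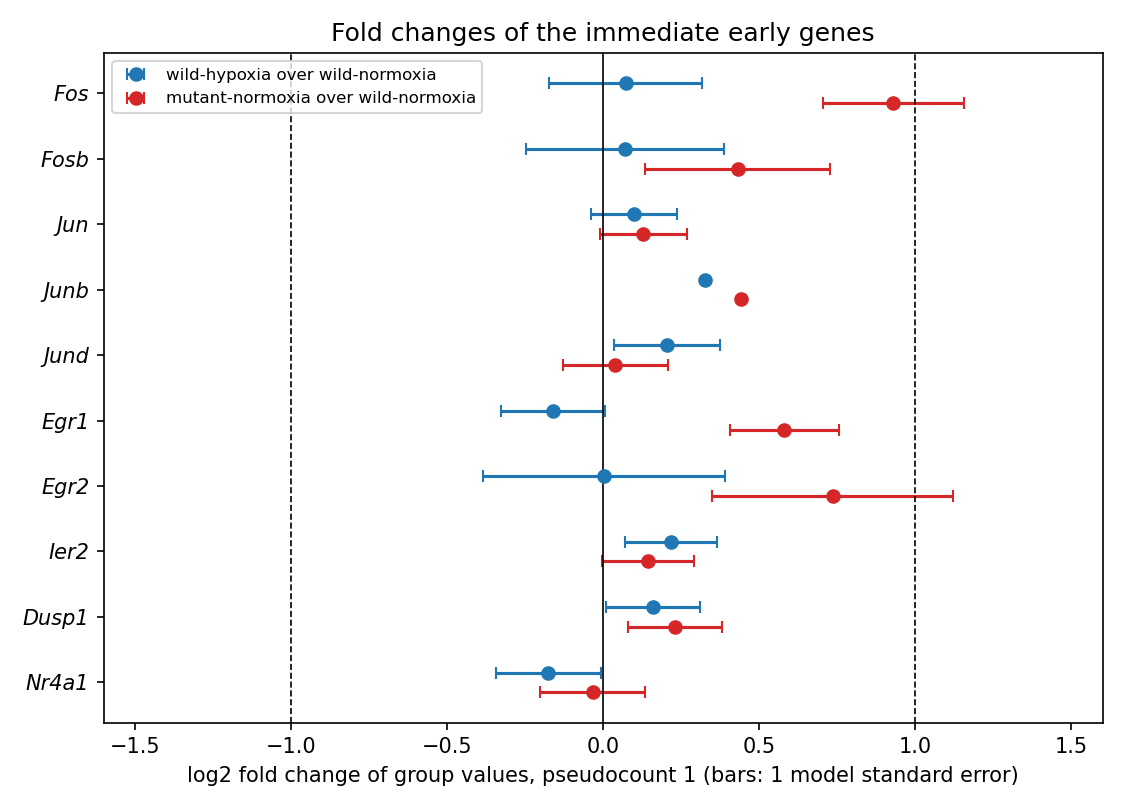
Log2 fold changes of the 10 immediate early genes (x axis) against wild-normoxia, blue for wild-hypoxia and red for mutant-normoxia, with bars of 1 model SE where one could be used (none for Junb). Dashed lines mark a fold of 2. The wild-hypoxia points lie between -0.18 and 0.33, and the mutant-normoxia points between -0.03 and 0.93, with Fos, Egr2 and Egr1 farthest right.

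Levels were compared between members per kilobase of exon in the NCBIM37 annotation, which holds 65.9% of the identifiers in the table, so the authors' gene models may have other lengths and overlaps. Jund was highest in every group, with 1750 fragments per kilobase in wild-hypoxia, 1561 in mutant-normoxia and 1518 in wild-normoxia, followed by Jun and Ier2. Jun had 747 fragments per kilobase in wild-hypoxia, 763 in mutant-normoxia and 698 in wild-normoxia, and Ier2 had 670 in wild-hypoxia, 637 in mutant-normoxia and 577 in wild-normoxia. Jun and Ier2, as neighbours, were 1.03 model SE apart in wild-hypoxia, 1.68 in mutant-normoxia and 2.06 in wild-normoxia. Egr1 had 260 fragments per kilobase in wild-hypoxia, 436 in mutant-normoxia and 291 in wild-normoxia, and Dusp1 had 316 in wild-hypoxia, 333 in mutant-normoxia and 283 in wild-normoxia. Egr1 thus stood below Dusp1 in wild-hypoxia and above it in the other groups, with gaps of 1.69 model SE in wild-hypoxia, 2.16 in mutant-normoxia and 0.271 in wild-normoxia. Junb came next in wild-hypoxia (203) and mutant-normoxia (219), ahead of Nr4a1 (189 in wild-hypoxia and 208 in mutant-normoxia), while in wild-normoxia Nr4a1 (213) was ahead of Junb (161). Junb had no usable model SE, so the gaps on either side of it could not be judged. Fos, Fosb and Egr2 were lowest in every group, in that order, with Fos at 67.3 fragments per kilobase in wild-hypoxia, 122 in mutant-normoxia and 64.0 in wild-normoxia. Gaps between these 3 were 2.20 model SE or more in each group. The ratio of Fos to Jun per kilobase was 0.0900 in wild-hypoxia, 0.160 in mutant-normoxia and 0.0917 in wild-normoxia. The summed count of the AP-1 members was 8012 fragments in wild-hypoxia, 7694 in mutant-normoxia and 7101 in wild-normoxia, most of it Jund and Jun, so the sum does not show the pattern of Fos.

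In wild-hypoxia against wild-normoxia, the median log2 fold change of the members was 0.09, with 8 of 10 above 0, where the median of all compared genes was -0.02 and 45.9% were above 0. With groups scaled to equal totals of the whole table, a setting added after the values were seen, Fos, Fosb and Egr2 turned to the lower side in wild-hypoxia and the median was 0.0071. None of the 9 members with a model SE was over 2 model SE from 0, and 5.63% of all compared genes were (2.23% higher and 3.4% lower). In mutant-normoxia against wild-normoxia, the median was 0.33, with 9 of 10 above 0, where the median of all genes was -0.01 and 47.9% were above 0. Fos and Egr1 were over 2 model SE, 2 of 9 members, and 4.27% of all genes were over 2 model SE (3.14% higher and 1.13% lower). Over the members with at least 100 fragments in every group, which leaves out Fosb and Egr2, the median was 0.13 for wild-hypoxia and 0.19 for mutant-normoxia, a restriction added after the values were seen. Both comparisons use the same wild-normoxia value.

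**Figure D3:**
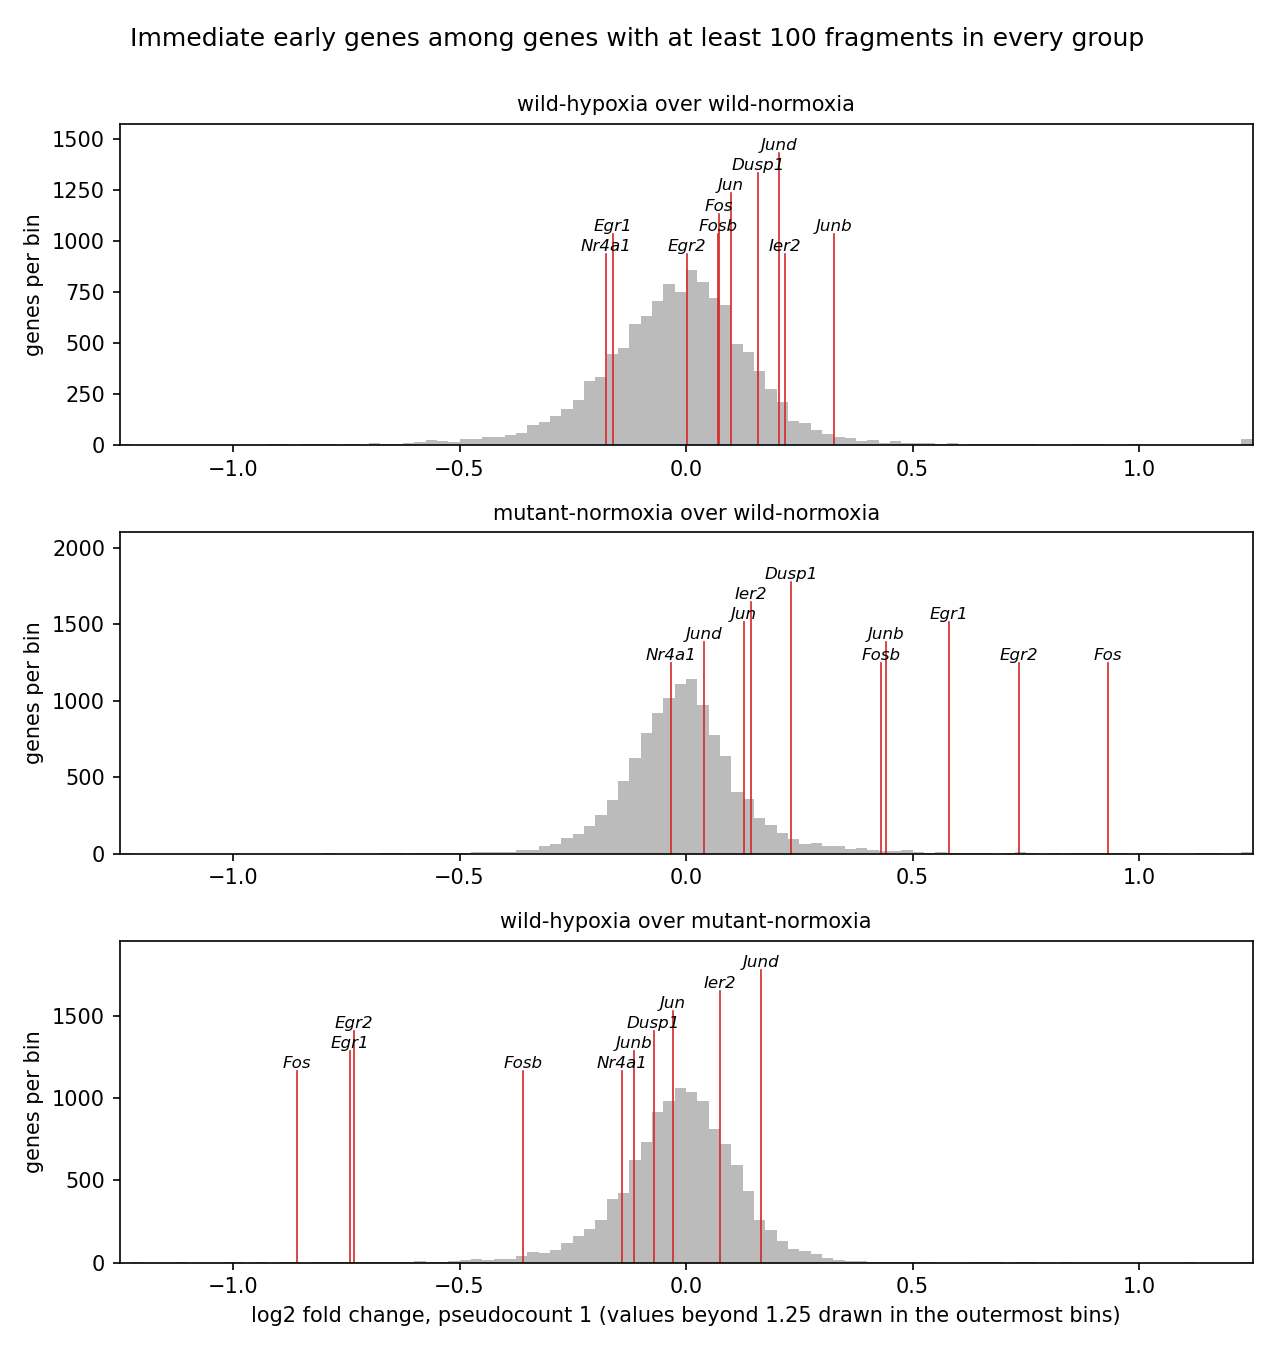
Histograms of the log2 fold changes of the 11742 genes with at least 100 fragments in every group (x axis log2 fold change, y axis genes per bin of 0.025), for wild-hypoxia over wild-normoxia, mutant-normoxia over wild-normoxia and wild-hypoxia over mutant-normoxia, with red lines at the 10 immediate early genes (Fosb and Egr2 are marked although they have fewer fragments). Values beyond the axis are drawn in the outermost bins. The members lie between -0.18 and 0.33 in the top panel, while Fos, Egr2 and Egr1 lie at the right edge in the middle panel and at the left edge in the bottom panel.

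Wild-hypoxia and mutant-normoxia hearts were also compared directly. The mutant-normoxia values are those of the comparison above, so the results are not separate from it. Egr1 was lower in wild-hypoxia, with a log2 fold change of -0.74 (model SE 0.18), a fold of 0.598 and a distance of -4.09 model SE. Fos was lower by a similar amount, at -0.86 (0.25), a fold of 0.552 and a distance of -3.47 model SE. Of the 11742 well-counted genes, 12 had a lower log2 fold change than Fos and 19 a lower one than Egr1. Egr2 was at -0.73 (0.41) and Fosb at -0.36 (0.33), both under 2 model SE. The other members ranged from -0.14 for Nr4a1 to 0.17 for Jund. Thus 2 of 9 members were over 2 model SE apart, both lower in wild-hypoxia, where 2.29% of all compared genes were over 2 model SE (0.326% higher and 1.97% lower). The median of the members was -0.13, with 2 of 10 above 0, against -0.02 and 44.3% for all genes. With undivided variances the distances were -2.36 for Egr1 and -2.00 for Fos.

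Among 32 other immediate early genes on a list set down with earlier results of these data known, 5 were over 2 model SE higher in mutant-normoxia and 0 lower (median log2 fold change 0.10). These 5 were between 2.17 and 2.86 model SE from 0. Egr1, at 3.34, fell to 1.81 with undivided variances, and such distances are not given here for the lists. Below, a single value with a second in parentheses is a log2 fold change against wild-normoxia with its model SE, unless another comparison is named. The 5 were Ccn1, a secreted matrix protein gene acted on by SRF, Gadd45g, a stress-induced cell cycle inhibitor, Zfp36l2, which speeds the decay of AU-rich transcripts, Arc, a gene of active neurons, and Ptgs2, the inducible cyclooxygenase. Ccn1 had 904 fragments in wild-hypoxia, 1282 in mutant-normoxia and 940 in wild-normoxia, a log2 fold change of 0.45 (model SE 0.16) in mutant-normoxia. Gadd45g had 394 fragments in wild-hypoxia, 530 in mutant-normoxia and 379 in wild-normoxia, at 0.48 (0.17) in mutant-normoxia. Zfp36l2 was at 0.38 (0.14) in mutant-normoxia. It was at 0.29 (0.14) in wild-hypoxia as well. Arc had 45.5 fragments in wild-hypoxia, 65.2 in mutant-normoxia and 39.7 in wild-normoxia, at 0.70 (0.32). Ptgs2 had 21.7 in wild-hypoxia, 30.8 in mutant-normoxia and 13.8 in wild-normoxia, and at 1.10 (0.40) was the 1 gene of the list over 2-fold there. In wild-hypoxia, 1 of the 32 was over 2 model SE higher (Zfp36l2, just past the threshold at 2.01) and 2 were lower (median 0.05). Npas4, a factor of active neurons, was at -1.20 (0.37), with 29.6 fragments in wild-hypoxia, 61.0 in mutant-normoxia and 69.2 in wild-normoxia. Ccn2, a matrix protein gene related to Ccn1, was at -0.30 (0.15), a distance of -2.05 model SE, also just past the threshold. Of all genes, 2.23% were over 2 model SE higher and 3.4% lower in wild-hypoxia, and 3.14% higher and 1.13% lower in mutant-normoxia.

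Ccn1 and Gadd45g were also the genes whose values resembled those of Egr1 most. Likeness was the distance over the 2 log2 fold changes against wild-normoxia, among 53 other immediate early, AP-1, EGR, NR4A, DUSP and ERK feedback genes with at least 100 fragments in every group. For Egr1 the nearest were Ccn1 at 0.17, Gadd45g at 0.24 and Dusp5 at 0.29, and for Fos they were Gadd45g at 0.45, Etv5 at 0.49 and Ccn1 at 0.50. With 3 group values this is a coarse measure, and no gene was as high in mutant-normoxia as Fos among these. Between wild-hypoxia and mutant-normoxia directly, 5 of the 32 were over 2 model SE lower in wild-hypoxia and 0 higher: Ccn2 at -0.58 (0.16), Ccn1 at -0.50 (0.17), Npas4 at -1.02 (0.40), Ier3 at -0.47 (0.20) and Gadd45g at -0.43 (0.18). Of all genes, 1.97% were lower and 0.326% higher there.

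Relatives of the members by family were also compared. Of 9 compared genes of other AP-1 and related bZIP proteins, 0 were over 2 model SE in any comparison. Atf3, a stress-induced bZIP factor, was at 0.32 (0.17) in mutant-normoxia, Fosl1, a FOS relative, at 0.34 (0.36) from 39.8 fragments, and Fosl2, another, had 662 fragments in wild-hypoxia, 777 in mutant-normoxia and 713 in wild-normoxia. Mafk, a small MAF protein, had a log2 fold change of 0.33 (0.19) for wild-hypoxia and 0.31 (0.20) for mutant-normoxia. Of 5 compared EGR and NR4A relatives and EGR corepressors, 0 were over 2 model SE. Of all genes, 5.63% were over 2 model SE in wild-hypoxia against wild-normoxia and 4.27% in mutant-normoxia against wild-normoxia. The share was 2.29% in wild-hypoxia against mutant-normoxia, so 0 in lists this short is near these shares. Egr3, another EGR factor, had 21.5 fragments in wild-hypoxia, 19.6 in mutant-normoxia and 17.1 in wild-normoxia. Nr4a2, a relative of Nr4a1, had 109 fragments in wild-hypoxia, 103 in mutant-normoxia and 119 in wild-normoxia. Nr4a3, a further relative, was at 0.29 (0.38) in mutant-normoxia. Nab1, a corepressor of EGR proteins, was at -0.15 (0.14) in mutant-normoxia. Egr4 and Batf2 did not reach the minimum count.

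As lists, the regulators upstream of the members had medians near the wild-normoxia level. Of 12 SRF, ternary complex and CREB genes, 0 were over 2 model SE in either group, and the median was 0.02 for wild-hypoxia and 0.01 for mutant-normoxia. The farthest in mutant-normoxia was Crem, a modulator of CRE sites, at -0.36 (0.19), and in wild-hypoxia Creb1, which encodes CREB itself, at -0.24 (0.14). Mrtfa, a coactivator of SRF, was at 0.22 (0.17) in mutant-normoxia. Srf itself had a model SE of 0.46 in both comparisons against wild-normoxia, so its level is known only coarsely. Of 17 compared kinases of the ERK, JNK and p38 cascades, 0 were over 2 model SE, and the median was -0.03 for wild-hypoxia and -0.02 for mutant-normoxia. Of all genes, 5.63% in wild-hypoxia and 4.27% in mutant-normoxia were over 2 model SE, so 0 in lists of this size is near that share. Those farthest from 0 were Braf, a kinase at the head of the ERK cascade, at -0.39 (0.24) in wild-hypoxia, and Rps6ka3, a kinase activated by ERK, at -0.19 (0.14) in mutant-normoxia. Transcript levels do not measure the activity of these kinases. Of 17 DUSP phosphatases and ERK feedback genes, 3 were over 2 model SE higher in mutant-normoxia while 0 were higher in wild-hypoxia. Of all genes, 3.14% were higher in mutant-normoxia and 2.23% in wild-hypoxia. The median of the list was 0.02 for wild-hypoxia and 0.15 for mutant-normoxia. Etv5, an ETS factor downstream of ERK, was at 0.44 (0.17), Dusp4, a nuclear phosphatase of ERK, at 0.39 (0.17), and Dusp6, the cytoplasmic ERK phosphatase, at 0.33 (0.14). These 3 were between 2.31 and 2.54 model SE from 0, and their distances with undivided variances are not given here. Dusp6 had 1341 fragments in wild-hypoxia, 1684 in mutant-normoxia and 1338 in wild-normoxia, and was also over 2 model SE apart between wild-hypoxia and mutant-normoxia (-0.33, 0.15).

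**Figure D4:**
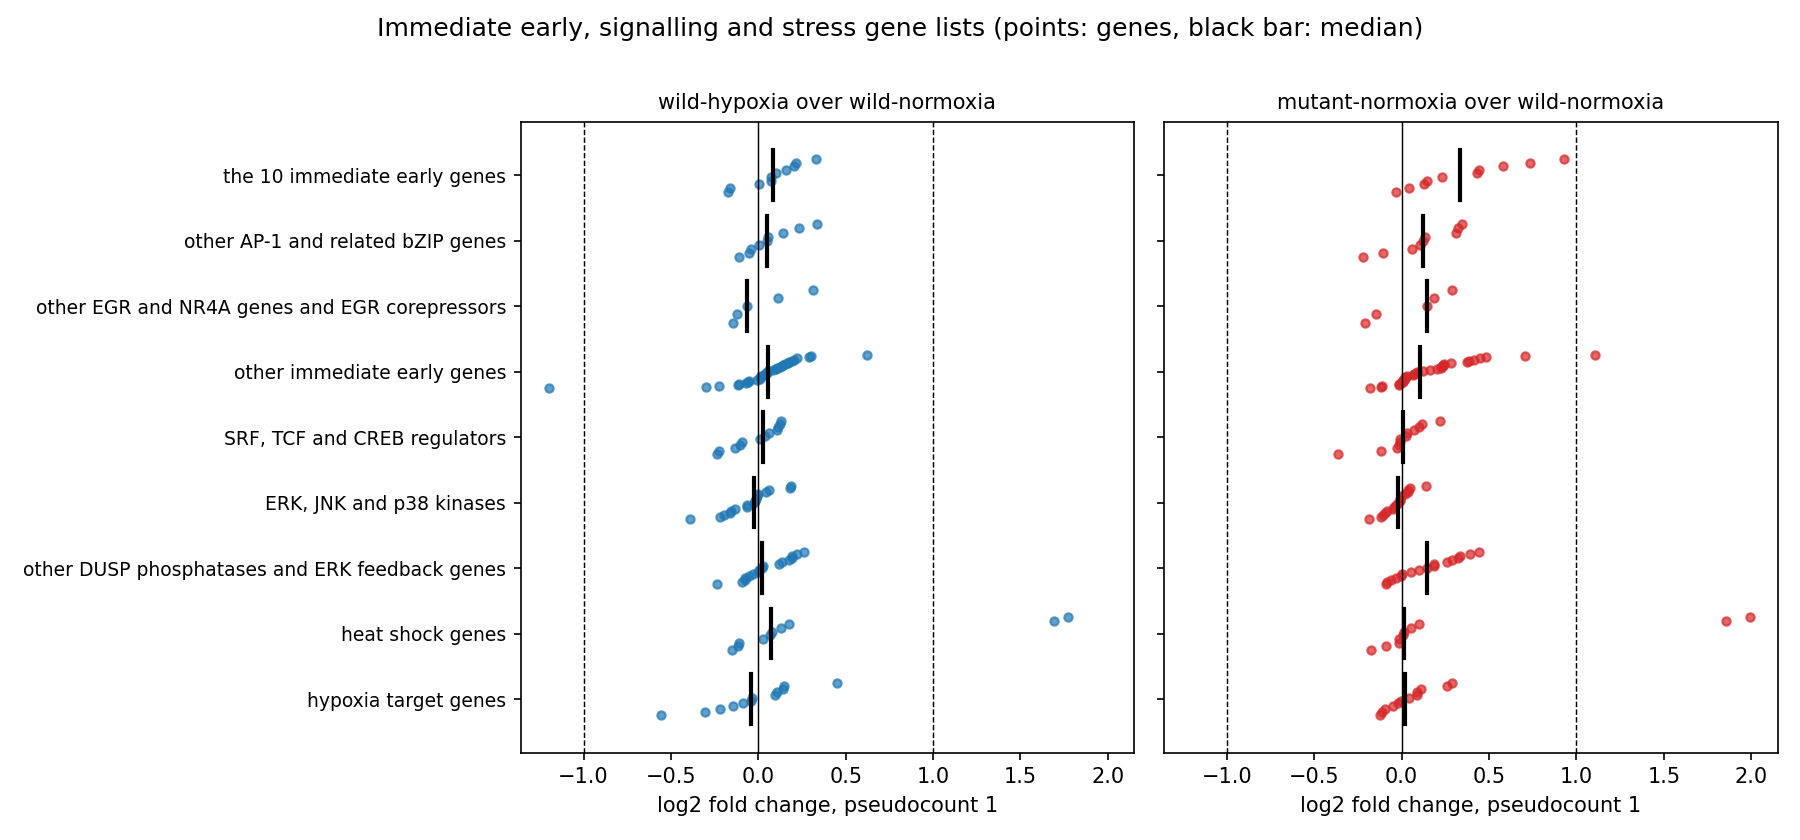
Log2 fold changes (x axis) of the immediate early genes and of 8 lists of related, signalling and stress genes, with wild-hypoxia over wild-normoxia on the left and mutant-normoxia over wild-normoxia on the right. Each point is 1 gene, the black bar is the list's median, and dashed lines mark a fold of 2. The median of the 10 members is 0.09 on the left and 0.33 on the right, while the 2 points beyond 1.5 on both sides are Hspa1a and Hspa1b.

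Transcripts of stress and of other cell types also differed between the groups. Hspa1a, an inducible heat shock gene, had 139 fragments in wild-hypoxia, 147 in mutant-normoxia and 39.9 in wild-normoxia. Hspa1b had 113 in wild-hypoxia, 139 in mutant-normoxia and 34.2 in wild-normoxia. The pair are almost the same in sequence, so reads may be split between them. The other 8 heat shock genes were under 2 model SE. Of 12 targets of the hypoxia-inducible factors, 0 were over 2 model SE higher in wild-hypoxia and 1 was lower, Vegfa at -0.55 (0.16). The 8 neuron markers summed to 863 fragments in wild-hypoxia, 1407 in mutant-normoxia and 1164 in wild-normoxia, an order of groups like that of Egr1. Tubb3 was the largest part of each sum, with 434 in wild-hypoxia, 660 in mutant-normoxia and 490 in wild-normoxia. Its model SE was 3.31 in mutant-normoxia against wild-normoxia, so the order of the sums is uncertain. In that comparison 7 of the 8 were above 0 and 1 below, Nhlh2, with 36.9 fragments in mutant-normoxia and 78.6 in wild-normoxia. The median log2 fold change of the 8 was -0.57 for wild-hypoxia and 0.26 for mutant-normoxia. Of these 8, 3 were over 2 model SE lower in wild-hypoxia, and in mutant-normoxia 0 were higher and 1 was lower. In wild-hypoxia against mutant-normoxia all 8 were below 0, 4 were over 2-fold lower and 3 were over 2 model SE lower. Of all genes there, 1.73% were over 2-fold lower and 1.97% over 2 model SE lower. The 7 compared red cell markers summed to 31653 fragments in wild-hypoxia, 27456 in mutant-normoxia and 11979 in wild-normoxia, all 7 over 2 model SE higher in both groups. The 8 liver markers summed to 1537 in wild-hypoxia, 1736 in mutant-normoxia and 4679 in wild-normoxia, 7 of them over 2 model SE lower in both groups. Of 6 keratinocyte markers, 4 were over 2-fold higher in both groups, and Krt5, the most abundant of the 4, had 950 fragments in wild-hypoxia, 675 in mutant-normoxia and 113 in wild-normoxia. Among all genes, 2.23% in wild-hypoxia and 3.14% in mutant-normoxia were over 2 model SE higher, and 3.4% and 1.13% lower. Over 2-fold higher were 1.08% in wild-hypoxia and 1.59% in mutant-normoxia. The 8 macrophage markers summed to 1461 fragments in wild-hypoxia, 1295 in mutant-normoxia and 1590 in wild-normoxia. Lyz2, lysozyme, was the only 1 of the 8 over 2 model SE in any comparison, with 405 fragments in wild-hypoxia, 148 in mutant-normoxia and 504 in wild-normoxia, a log2 fold change of -1.76 (0.21) in mutant-normoxia. The 8 endothelial and endocardial markers summed to 32625 in wild-hypoxia, 29671 in mutant-normoxia and 30577 in wild-normoxia, and the 8 mesenchyme and epicardium markers to 47503 in wild-hypoxia, 47331 in mutant-normoxia and 44819 in wild-normoxia. No compared marker was at 0 in any group. The part of other cells, of stress and of the handling of the hearts in the values of Fos and Egr1 was not tested.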

How the data were processed

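Poly-adenylated RNA of 10 samples in 3 groups was sequenced by the authors, who checked reads with FastQC, mapped them with Bowtie2 and TopHat to the genome named mm9 and quantified genes with Cufflinks. The sources used here give neither versions nor the annotation release. The deposited estimated counts hold 1 value per gene and group, with a model variance (other, in squared fragments) that the authors deposited beside each count. No value per sample was used, so no count test, leave-one-out or replicate block could be run, and estimated counts were not rounded. Genes with a failed or overfull estimate in some group (34) were left out.

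Symbols came from a reference table (65.9% of 49662 genes named); 191 of 195 list genes matched. Log2 ratios used a pseudocount of 1 and a minimum of 10 fragments in 1 group or more, in Python 3.11.15 with numpy 2.4.6 and pandas 2.3.3. The calculation was tested on simulated data. These took the variance as that of a single sample, so they could not check whether division by the group size is right. A gene was counted by a fold over 2 or a distance over 2 model SE, and model SE under 0.05 were not used. Per the labels, depth was about 35 M reads per sample. Positions and exon lengths are from the NCBIM37 annotation (mm9). It holds 65.9% of the identifiers in the table, and gene positions in the study's supplement are on another build, so the authors' gene models may be others. For well-counted genes the median model SD was 14.8% of the count.

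The members and all lists were chosen with earlier results of these data known. The naming rule took all members, of each list the 3 genes farthest from 0 in model SE in each comparison, and the 3 genes most like Egr1 and Fos; the text gives those it turns on. Zfp36l2 and Arc in mutant-normoxia, Ier3 and Gadd45g in the direct comparison, Krt5, Lyz2 and the printed Egr2 window were chosen after their values were seen. Alternatives changed the pseudocount, the minimum count, the scaling, the division of the variance and the fold.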

Additional observations from a re-analysis of the deposited data

How the results depend on the processing

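The signs of the members' log2 fold changes were the same under pseudocounts of 10 and 0.5, without a minimum count, with 50 fragments as the minimum and under all 3 scalings in mutant-normoxia against wild-normoxia and in wild-hypoxia against mutant-normoxia. In wild-hypoxia against wild-normoxia 3 of 10 signs turned. Egr2 was at -0.01 with groups scaled to equal totals of the genes estimated in every group (18.3 M in wild-hypoxia, 18.5 M in mutant-normoxia and 18.2 M in wild-normoxia). With equal totals of the whole table, added after the data were seen and a shift of -0.08 in that comparison, Fos was at -0.0063, Fosb at -0.0069 and Egr2 at -0.07. With a minimum of 50 fragments Egr2 drops out. A fold over 1.5 in place of 2 counted 2 members in mutant-normoxia against wild-normoxia, Fos and Egr2, with Egr1 just under at 1.496. It counted 3 in wild-hypoxia against mutant-normoxia, Fos, Egr1 and Egr2. A fold over 2 counted 0 in both. The share of all genes over 1.5-fold is not given here, so these counts have no background beside them. With each variance taken whole rather than over the group size, 1 member in place of 2 was over 2 model SE in mutant-normoxia against wild-normoxia, Fos. No paired analysis was possible because the deposited table holds 1 value per group, and for the same reason no replicate could be left out. Low counts limit Egr2 and Fosb.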
